A study of Mus musculus with 12 samples.

Results

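The interferon-inducible immunity GTPases described here are 9 mouse genes of 2 protein families that cells switch on when interferon reaches them. Iigp1, Gm4951, Igtp, Irgm1, Irgm2 and Ifi47 belong to the immunity-related GTPases, and Gbp2, Gbp3 and Gbp7 to the guanylate-binding proteins. Every probe set annotated to one of these genes and to no other gene was taken, which gave 12 probe sets for the 9 genes, out of 18193 genes with such a probe set on the array. The probe set that stands for a gene was chosen by its mean over the 12 arrays, as the one that read highest, and the second probe sets of Iigp1, Gbp2 and Gbp7 are given beside it. That choice used no group label, but the gene list was put together with earlier results of these arrays known, so counts over the 9 genes are a description and not a test of the family.

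RNA of C790 cells, a Nras-mutant mouse melanoma line, was measured on Affymetrix mouse genome arrays, with 3 arrays in each of 4 groups at day 20. Partially reprogrammed cells (+dox) had received doxycycline, which by the methods induces the transcription factors Oct4, Sox2 and Klf4 from a lentiviral vector, and were selected with blasticidin. Control cells (−dox) carried the same vector and the same mCherry-linked rtTA transactivator vector but received no doxycycline. On these arrays doxycycline itself and the factors it induces therefore cannot be told apart. Whether the control cells were also selected with blasticidin is not stated. The paper also gave doxycycline to parental C790 cells, but read only stemness and melanocytic markers in them, by qPCR. Cells of both states were then treated for 72 h with trametinib, an inhibitor of the kinase MEK, or with its solvent DMSO. The 4 groups are therefore +dox trametinib, +dox DMSO, −dox trametinib and −dox DMSO. The labels do not say whether the arrays of a group came from separate cultures, so the p-values cover the spread between these arrays and no more.

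The deposited values are log2 expression values after robust multi-array averaging (RMA), so a difference of 1 is a doubling. Pairs of arrays correlated at 0.937 to 0.997 over all 45101 deposited probe sets, and no pair held identical values. A background level of 4.86 was taken from 86 probe sets of taste, olfactory and vomeronasal receptor genes, which lay under it at their 95th percentile. Of the 3 factors, Pou5f1 (Oct4) averaged 5.45 in +dox DMSO and 4.63 in −dox DMSO cells and was called higher (at least 0.59, adjusted p = 0.016 from limma, with the −dox DMSO mean under the background level). Sox2 averaged 5.87 in +dox DMSO and 7.40 in −dox DMSO cells (log2 change -1.53, adjusted p = 0.091) and Klf4 averaged 9.30 in +dox DMSO and 9.45 in −dox DMSO cells (-0.15, adjusted p = 0.80), so these arrays did not show a higher level of either. Whether their probe sets read the vector's transcript is not given in the sources used here. The paper itself reported increased Sox2 by qPCR in reprogrammed C790 cells at day 20, with a SOX2 western blot beside it. Dusp6, a phosphatase that ERK induces, fell by 6.90 in +dox cells with trametinib. In −dox cells its fall is bounded as at least 7.2, since all 3 arrays with the drug read below the background level. Of the 8 melanocyte lineage markers, Mitf, Pmel and Sox10 were over the background level in all 4 groups, whereas Tyr, Tyrp1, Dct and Mlana were under it in all of them. S100b was over it only in −dox DMSO cells, at a mean of 4.91. The paper reported lower Mitf and Pmel by qPCR in reprogrammed C790 cells, with a MITF western blot beside it. Neither was called between +dox DMSO and −dox DMSO cells here. Their log2 changes were -0.57 for Mitf (adjusted p = 0.29 from limma) and -0.04 for Pmel (adjusted p = 0.91).

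Interferons bind receptors that activate JAK kinases and STAT transcription factors. These bind gene promoters at the interferon-stimulated response element (ISRE) and, for interferon-γ, at the gamma-activated site (GAS). Immunity-related GTPases and guanylate-binding proteins are among the most strongly induced products in mouse cells, where they assemble on the membranes of vacuoles that hold parasites or bacteria and help to break them open. Within the immunity-related GTPases, Irgm1, Irgm2 and Igtp are regulators that sit on the membranes of the cell's own organelles and keep the effector GTPases, such as Iigp1, inactive there. In tumour cells the same genes are widely read as a sign of an active interferon response.

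Promoter sequence was looked up in RefSeq (mouse build GRCm38.p6) for the 9 genes. They were listed as interferon-inducible, so how often they carry interferon elements is a description and not a test. Among the 9 genes, 7, all but Iigp1 and Gm4951, matched a promoter. Gbp3 matched a pair, which gave 8 windows. The 250 bases upstream of each start site, in these windows and in all others of the table, were searched on both strands for an ISRE core, which is GAAA, any 2 bases and GAAA, and for a GAS, written TTCNNNGAA. An ISRE core was found in 6 of the 8 windows (75%), against 978 of all 32851 windows (2.98%). A GAS was found in 3 of the 8 windows (37.5%), against 2306 of 32851 windows (7.02%). The stretches around the cores follow, 5′ to 3′ on the strand of the gene, with the letters of the ISRE core in capitals. Where the core lies on the opposite strand, the line shows its complement, which is TTTC, any 2 bases and TTTC.
Gbp7, chr3:142530258-142530317, plus strand: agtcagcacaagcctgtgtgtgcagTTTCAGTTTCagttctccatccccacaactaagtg
Gbp3, chr3:142559974-142560039, plus strand: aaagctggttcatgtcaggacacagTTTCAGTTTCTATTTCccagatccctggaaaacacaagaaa
Gbp2, chr3:142620579-142620638, plus strand: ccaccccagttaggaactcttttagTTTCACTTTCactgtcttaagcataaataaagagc
Irgm1, chr11:48871421-48871475, minus strand: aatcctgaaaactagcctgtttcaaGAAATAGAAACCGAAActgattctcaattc
Igtp, chr11:58199497-58199555, plus strand: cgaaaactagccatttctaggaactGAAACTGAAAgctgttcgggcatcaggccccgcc
Irgm2, chr11:58214888-58214947, plus strand: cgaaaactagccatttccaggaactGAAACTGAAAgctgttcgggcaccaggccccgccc

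The guanylate-binding protein genes lie together on chromosome 3 and carry the core on the strand opposite to the gene, whereas the 3 regulators on chromosome 11 carry it on the strand of the gene. The core of Gbp7 lay 53 to 44 bases upstream of the start site and that of Gbp2 59 to 50 bases upstream. Gbp3 and Irgm1 each held 2 overlapping cores, 45 to 30 and 30 to 15 bases upstream. In Igtp the core lay 34 to 25 bases upstream and in Irgm2 64 to 55 bases upstream. Those stretches of Igtp and Irgm2 were identical at 57 of the 59 positions compared, while the other pairs of stretches, set side by side from their first base with no gaps, matched at 11 to 25 positions. No GAS overlapped an ISRE core, and the window of Ifi47 held neither set of letters. A match of letters shows no binding.

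**Figure D1:**
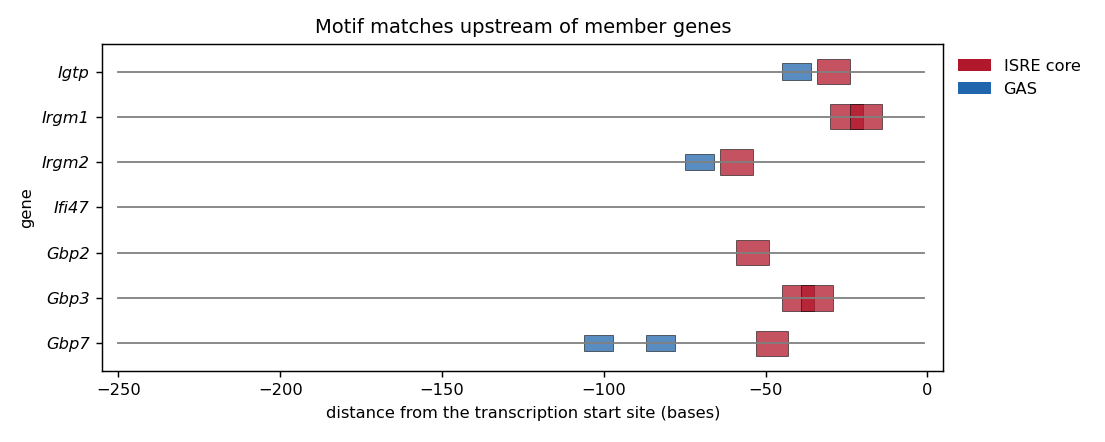
Positions of ISRE cores (red) and GAS matches (blue) in the 250 bases upstream of the start site of 7 genes, one line per gene, with distance from the start site in bases on the horizontal axis. Every ISRE core lies within the last 64 bases, Gbp7 has 2 GAS matches, Igtp and Irgm2 have 1 each, and Ifi47 has no match; the window of Gbp3 without a match is drawn on the same line.

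The 9 genes shared a single order of the 4 groups. Each was highest in +dox trametinib cells, then in −dox trametinib and −dox DMSO cells, and lowest in +dox DMSO cells. Between the highest and the lowest group, the means differed by 2.94 on the log2 scale for Irgm2 and by 6.14 for Gbp2. For Iigp1 and Gm4951, whose lowest means were under the background level, they differed by at least 6.13 and at least 5.87. In that order, the 2 trametinib groups did not overlap for 3 of the 9 genes (Irgm1, Gbp2 and Gbp7), where 9.45% of all genes were higher without overlap in +dox cells. The −dox trametinib and −dox DMSO arrays did not overlap for any of the 9 genes, against 20.4% of all genes higher without overlap. The +dox DMSO and −dox DMSO arrays did not overlap for 8, all but Gm4951, against 11.1% of all genes lower without overlap.

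Iigp1 (also Irga6), an effector that coats the vacuole of Toxoplasma, had log2 values of 11.64, 10.47 and 10.87 in +dox trametinib cells, 3.81, 3.78 and 3.39 in +dox DMSO cells, 10.65, 9.35 and 9.49 in −dox trametinib cells, and 6.06, 8.19 and 7.03 in −dox DMSO cells. It was under the background level on all 3 +dox DMSO arrays and over it on all others. Its second probe set had 10.95, 9.99 and 10.21 in +dox trametinib, 4.02, 3.41 and 3.61 in +dox DMSO, 10.14, 9.02 and 9.04 in −dox trametinib and 5.78, 8.04 and 6.82 in −dox DMSO cells, in the same order. Gm4951, annotated in RefSeq as an interferon-γ-inducible GTPase (Ifgga2), had 11.20, 10.52 and 10.48 in +dox trametinib, 3.73, 4.12 and 5.09 in +dox DMSO, 10.60, 8.94 and 9.53 in −dox trametinib, and 5.02, 7.19 and 6.47 in −dox DMSO cells. Here 1 of the 3 +dox DMSO arrays was over the background level, and it read higher than the lowest −dox DMSO array. Ifi47 (also Irgd), a further immunity-related GTPase, had 12.53, 11.70 and 11.90 in +dox trametinib, 8.31, 8.17 and 8.29 in +dox DMSO, 12.28, 10.82 and 11.21 in −dox trametinib, and 9.19, 9.92 and 9.60 in −dox DMSO cells. All arrays were over the background level, and the trametinib arrays lay above the DMSO arrays of both cell states.

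The regulators of the family were measured well over the background level in every group. Irgm1, which also takes part in autophagy, had 11.61, 11.31 and 11.33 in +dox trametinib, 7.93, 8.01 and 8.06 in +dox DMSO, 11.29, 10.40 and 10.57 in −dox trametinib, and 8.37, 9.87 and 9.19 in −dox DMSO cells. The +dox trametinib arrays all lay above the −dox trametinib arrays, which was not so for the other regulators. Irgm2 had 11.37, 10.72 and 10.80 in +dox trametinib, 8.18, 8.09 and 7.81 in +dox DMSO, 11.28, 10.17 and 10.28 in −dox trametinib, and 8.54, 9.37 and 8.92 in −dox DMSO cells. Igtp (also Irgm3) had 12.70, 12.01 and 11.84 in +dox trametinib, 8.85, 9.06 and 8.72 in +dox DMSO, 12.18, 11.11 and 11.21 in −dox trametinib, and 9.40, 9.94 and 9.41 in −dox DMSO cells. For both, the highest −dox trametinib array read above the lowest +dox trametinib array, and the DMSO arrays of both cell states lay below all trametinib arrays.

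Among the guanylate-binding proteins, Gbp2, which is recruited to parasite vacuoles, had 13.78, 13.19 and 13.25 in +dox trametinib, 7.13, 7.04 and 7.63 in +dox DMSO, 13.15, 11.83 and 11.99 in −dox trametinib, and 9.24, 10.17 and 9.46 in −dox DMSO cells. Its probe set is of a type that may also match related transcripts. The second probe set, without that mark, had 13.41, 12.63 and 12.94 in +dox trametinib, 6.93, 6.91 and 7.29 in +dox DMSO, 12.84, 11.28 and 11.57 in −dox trametinib, and 9.08, 9.93 and 9.22 in −dox DMSO cells, again in the same order. Gbp3, a neighbour of Gbp2 in the chromosome 3 cluster, had 12.53, 11.85 and 11.93 in +dox trametinib, 6.66, 7.06 and 6.84 in +dox DMSO, 11.93, 10.43 and 10.66 in −dox trametinib, and 8.69, 9.83 and 8.82 in −dox DMSO cells. For both genes the +dox DMSO arrays lay below every −dox DMSO array.

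Gbp7, the last of the 3, had 12.35, 11.75 and 11.88 in +dox trametinib, 8.75, 8.74 and 9.09 in +dox DMSO, 11.72, 10.29 and 10.59 in −dox trametinib, and 9.31, 10.19 and 9.61 in −dox DMSO cells. Its lowest −dox trametinib array lay only just above its highest −dox DMSO array. The second probe set of Gbp7 had 11.53, 10.63 and 11.07 in +dox trametinib, 7.73, 7.53 and 8.0 in +dox DMSO, 10.78, 9.03 and 9.56 in −dox trametinib, and 8.18, 8.82 and 8.17 in −dox DMSO cells. Both probe sets placed the 4 groups in the same order, with all trametinib arrays above the DMSO arrays of the same cell state.

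**Figure D2:**
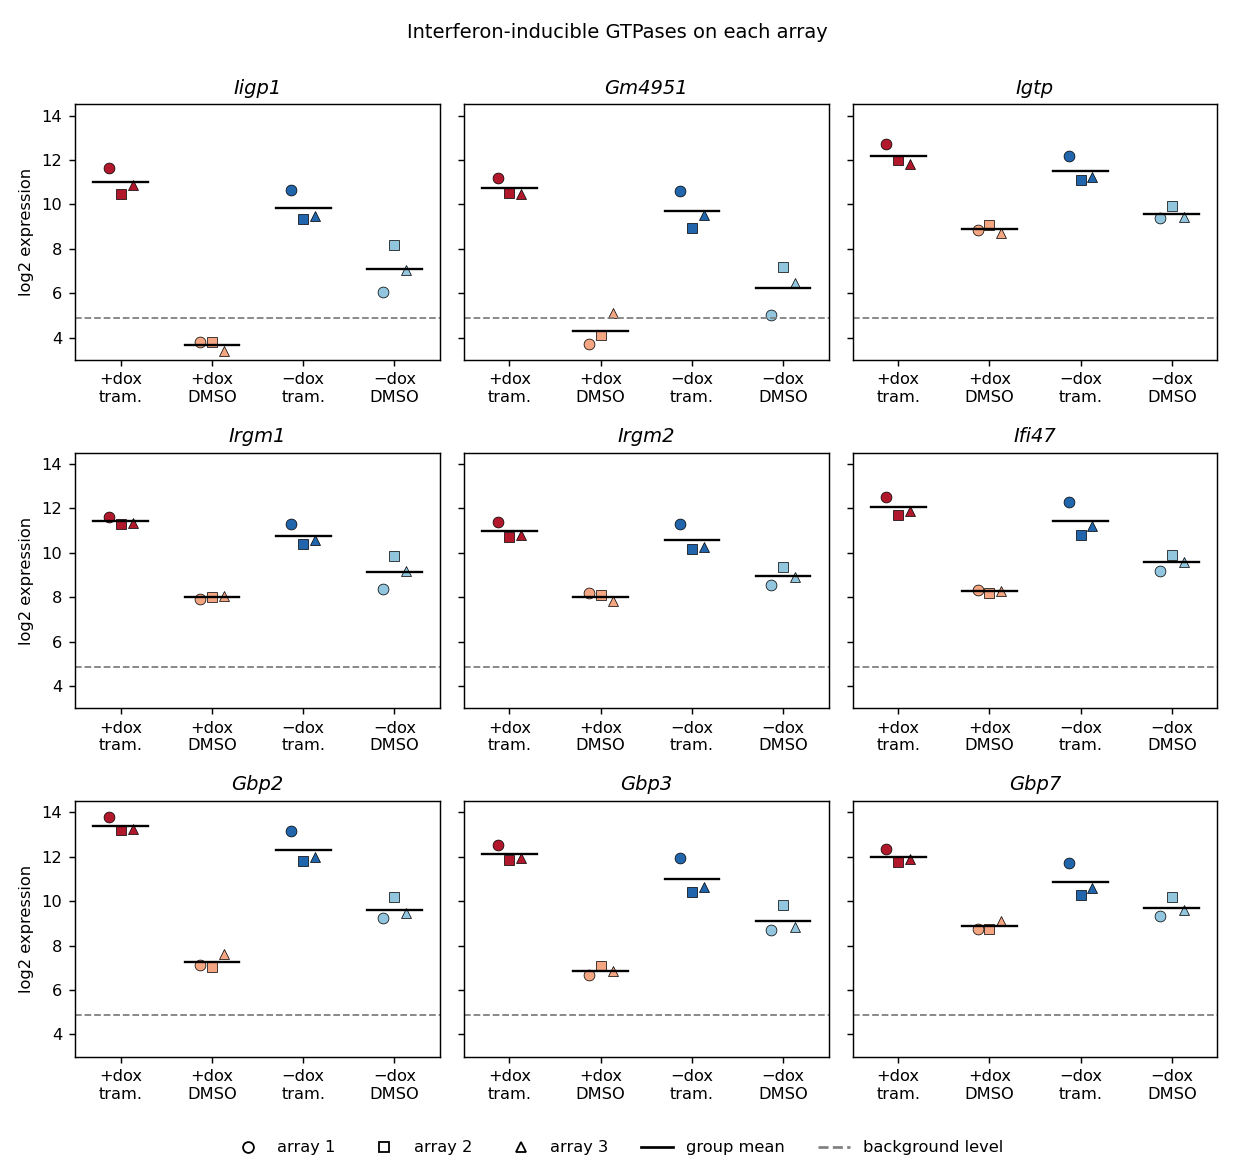
Log2 expression of the 9 genes on each of the 12 arrays, one panel per gene, with groups on the horizontal axis, point shapes for arrays 1 to 3, short lines for group means and a dashed line for the background level of 4.86. In each panel the +dox trametinib mean is the highest and the +dox DMSO mean the lowest, and the Iigp1 and Gm4951 means of +dox DMSO cells lie under the background level.

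The first question was how the partially reprogrammed cells changed when MEK was inhibited. In +dox cells all 9 genes rose with trametinib, at an adjusted p under 0.05 from limma over all genes, where 13.8% of all genes tested were called higher (26.2% in either direction). Their median log2 change was 3.79, against 0.02 over all genes. The largest fitted changes were those of the effector Iigp1, at 7.33 ± 0.50 (SE, n = 3 arrays per group, adjusted p = 8.5e-06 from limma), of Gm4951, at 6.42 ± 0.56 (adjusted p = 2.5e-05), and of Gbp2, at 6.14 ± 0.35 (adjusted p = 3.4e-06). Since Iigp1 and Gm4951 averaged under the background level in +dox DMSO cells, their rises are bounded as at least 6.13 and at least 5.87 and cannot be ranked above that of Gbp2. Gbp3 rose by 5.25 ± 0.39. The remaining genes rose by less, Ifi47 by 3.79 ± 0.34, Irgm1 by 3.42 ± 0.32, Igtp by 3.31 ± 0.29, Gbp7 by 3.13 ± 0.34 and Irgm2 by 2.94 ± 0.30, with adjusted p of 8.2e-05 or less. The +dox trametinib and +dox DMSO arrays did not overlap for any of the 9 genes, which held for 22.1% of all genes in the higher direction. The second probe sets gave rises of 6.70 ± 0.51 for Iigp1, 5.95 ± 0.37 for Gbp2 and 3.32 ± 0.39 for Gbp7.

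In control cells the same question had the same direction with smaller values. All 9 genes rose with trametinib in −dox cells, where 11.6% of all genes were called higher (22.4% in either direction), and their median log2 change was 1.89, against 0.06 over all genes. Gm4951 rose by 3.46 ± 0.56 (SE, n = 3 arrays per group, adjusted p = 0.0013 from limma), Iigp1 by 2.74 ± 0.50 (adjusted p = 0.0026) and Gbp2 by 2.70 ± 0.35 (adjusted p = 0.00035). Igtp rose by 1.92 ± 0.29, Gbp3 by 1.89 ± 0.39, Ifi47 by 1.87 ± 0.34, Irgm2 by 1.63 ± 0.30 and Irgm1 by 1.61 ± 0.32, with adjusted p between 0.00094 and 0.0051. Gbp7 rose least, by 1.16 ± 0.34 (adjusted p = 0.029). No gene had overlapping arrays, against 20.4% of all genes without overlap in this direction. The call of Gbp7 was lost without −dox trametinib array 1 (log2 change 0.74, adjusted p = 0.074), −dox DMSO array 1 (0.97, adjusted p = 0.088) or −dox DMSO array 3 (1.12, adjusted p = 0.082), and in a fit of the −dox arrays alone (adjusted p = 0.10).

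How +dox cells differed from −dox cells without the drug was read from the DMSO arrays. In +dox DMSO cells, 4 genes were lower than in −dox DMSO cells, Iigp1, Gbp2, Gbp3 and Ifi47, where 3.28% of all genes were called lower (6.15% in either direction). Their log2 changes were -3.43 ± 0.50 for Iigp1 (adjusted p = 0.0032 from limma, n = 3 arrays per group), -2.36 ± 0.35 for Gbp2 (adjusted p = 0.0034), -2.26 ± 0.39 for Gbp3 (adjusted p = 0.0075) and -1.31 ± 0.34 for Ifi47 (adjusted p = 0.043). With Iigp1 under the background level in +dox DMSO cells, its fall is bounded as at least 2.23. The other 5 genes did not pass, with changes of -1.91 for Gm4951 (adjusted p = 0.073, at least 1.37 in size, since its +dox DMSO mean was under the background level), -1.14 for Irgm1 (0.062), -0.92 for Irgm2 (0.10), -0.84 for Gbp7 (0.18) and -0.71 for Igtp (0.20). The median over the 9 genes was -1.31, against 0.01 over all genes, and 8 of them had no overlap, against 11.1% of all genes in this direction. The call of Ifi47 was lost without any of +dox DMSO arrays 1, 2 or 3 or −dox DMSO arrays 2 or 3 (adjusted p between 0.071 and 0.14) and when probe sets were tested one by one (0.058). Without −dox DMSO array 1 Gm4951 (-2.52, adjusted p = 0.016) and Irgm1 (-1.53, adjusted p = 0.0077) were called as well.

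With trametinib present, no gene of the family passed the test between +dox and −dox cells. None of the 9 was called by limma, where 1.95% of all genes were called higher (3.37% in either direction). The log2 changes lay between 0.39 ± 0.30 for Irgm2 and 1.16 ± 0.50 for Iigp1 (SE, n = 3 arrays per group), all above 0, with adjusted p between 0.11 and 0.68. The 95% intervals of the differences ran, for example, from 0.38 to 1.87 for Gbp7, from 0.32 to 1.85 for Gbp2 and from -0.27 to 1.05 for Irgm2, so they do not show that the 2 cell states were alike. For Irgm1, Gbp2 and Gbp7 the arrays did not overlap, 3 of 9 against 9.45% of all genes in this direction. Without −dox trametinib array 1, 5 genes were called higher, Igtp (1.02, adjusted p = 0.043), Ifi47 (1.03, adjusted p = 0.05 after rounding), Gbp2 (1.5, adjusted p = 0.015), Gbp3 (1.56, adjusted p = 0.021) and Gbp7 (1.55, adjusted p = 0.0076). The share of all genes called in that fit is not given here.

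**Figure D3:**
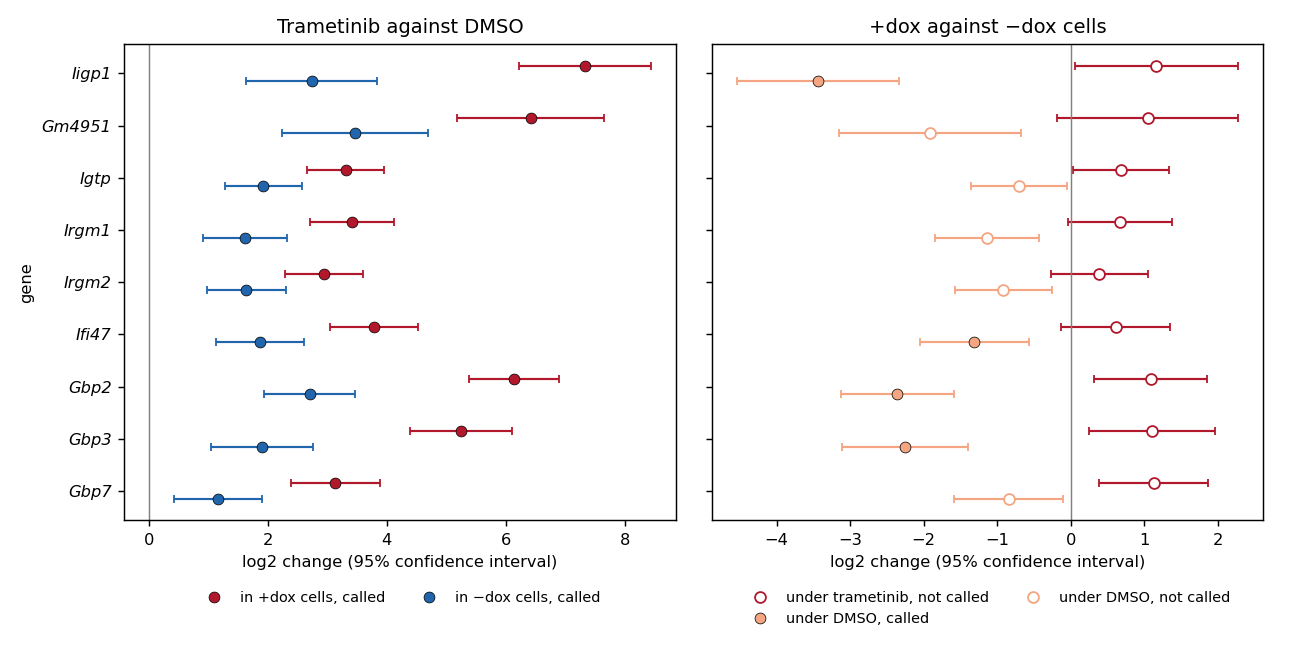
Log2 changes of the 9 genes with 95% confidence intervals from limma (left, trametinib against DMSO in +dox and −dox cells; right, +dox against −dox cells under trametinib and under DMSO; filled points, adjusted p under 0.05; open points, not called). All points of the left panel are filled and above 0, and in the right panel 4 points under DMSO (Iigp1, Ifi47, Gbp2 and Gbp3) are filled and below 0, while those under trametinib are open and above 0.

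The trametinib response was then compared between the cell states directly, as the response of +dox cells minus that of −dox cells. It was larger in +dox cells for 3 genes, Iigp1 by 4.60 ± 0.71 (SE, adjusted p = 0.03 from limma), Gbp2 by 3.44 ± 0.49 (adjusted p = 0.022) and Gbp3 by 3.36 ± 0.55 (adjusted p = 0.034), where 0.258% of all genes were called in this direction (0.33% in either). The other 6 had differences between 1.3 and 2.96 with adjusted p between 0.13 and 0.24. The highest of these, 2.96, is that of Gm4951 and rests on a +dox DMSO mean under the background level. This comparison shares its +dox DMSO arrays with the 2 comparisons above in which they were lowest, so the 3 comparisons are not separate evidence. The value of Iigp1 rests on +dox DMSO arrays under the background level, and the second probe sets gave 4.18 for Iigp1 (adjusted p = 0.056) and 3.46 for Gbp2 (adjusted p = 0.039), while Gbp3 had adjusted p = 0.051 when probe sets were tested one by one. The calls depended on single arrays, although the differences stayed between 4.05 and 5.11 for Iigp1, 3.17 and 3.85 for Gbp2 and 3.00 and 3.82 for Gbp3 when 1 array was left out. None was left without +dox trametinib array 1, +dox DMSO array 2, +dox DMSO array 3, −dox trametinib array 3 or −dox DMSO array 3, and 1 was left without +dox trametinib array 3 or −dox trametinib array 2. In contrast, 5 genes were called without −dox DMSO array 1 and 6 without −dox trametinib array 1. The share of all genes called in those fits is not given here.

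The spread within groups followed the same arrays for the whole family. Array 1 of +dox trametinib cells read above both other arrays for all 9 genes, by 0.65 on average against their mean, and array 1 of −dox trametinib cells did so for all 9 by 1.18. Array 1 of −dox DMSO cells lay below both others for all 9, by 0.86 on average, and array 2 lay above both for all 9, by 0.94. No +dox DMSO array stood above or below the others for all 9 genes. The SD over 3 arrays had a median over the 9 genes of 0.37 in +dox trametinib, 0.20 in +dox DMSO, 0.72 in −dox trametinib and 0.49 in −dox DMSO cells. Over the 12 arrays the genes correlated pairwise at 0.95 to 0.99 (36 pairs, median 0.98), and after subtracting group means at 0.64 to 0.99 (median 0.87). These points share the same 12 arrays and 4 groups, so the correlations are a description only.

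**Figure D4:**
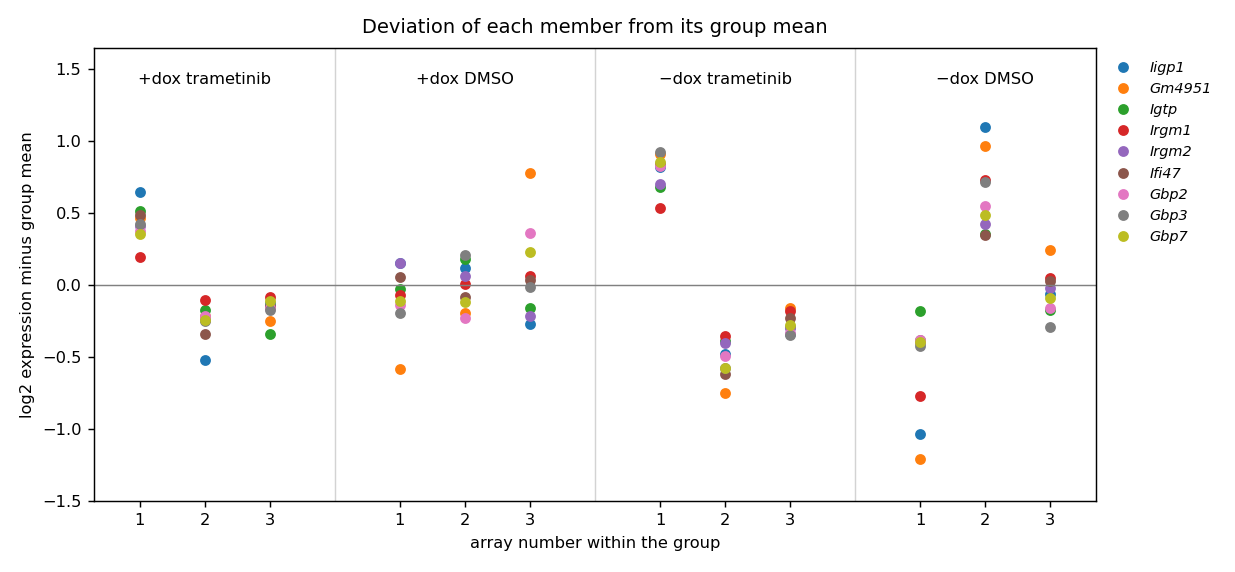
Log2 expression of each gene minus its group mean, by group and by array number within the group (9 points per array, coloured by gene). All 9 points lie above 0 for array 1 of both trametinib groups and for array 2 of −dox DMSO cells, and below 0 for array 1 of −dox DMSO cells.

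Further interferon-inducible GTPases were looked up by a list of 29 gene symbols, and 5 of these had a probe set of their own and are described here. The list counts symbols and not genes, since it includes Ifgga2, a name given above for Gm4951. A symbol without a match therefore does not show that its gene was missing from the array. Gbp6, a guanylate-binding protein, had 12.69, 11.52 and 11.86 in +dox trametinib, 7.55, 7.39 and 7.67 in +dox DMSO, 12.37, 9.73 and 10.47 in −dox trametinib, and 8.33, 7.55 and 7.15 in −dox DMSO cells. It rose with trametinib in both cell states, by 4.49 in +dox cells (adjusted p = 0.0002 from limma) and by 3.18 in −dox cells (adjusted p = 0.0021), but its DMSO arrays overlapped between +dox and −dox cells (log2 change -0.14, adjusted p = 0.93). The antiviral dynamin-like GTPases Mx1 and Mx2 rose in +dox cells, by 3.63 (adjusted p = 0.00041) and by 2.19 (adjusted p = 0.00011). In −dox cells their changes of 1.15 and 0.38 did not pass (adjusted p = 0.14 and 0.32). Mx2 was lower in +dox DMSO than in −dox DMSO cells (-1.18, adjusted p = 0.019). Gbp8 was not called in any comparison, and Gbp2b was under the background level in all 4 groups. In all, 3 of the 5 rose with trametinib in +dox cells and 1 in −dox cells, against 13.8% and 11.6% of all genes, and 1 was lower in +dox DMSO cells, against 3.28%.

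Of 24 genes for interferons, their receptors and their signalling, 23 were measured. In +dox cells 9 rose and 1 fell with trametinib, where 26.2% of all genes were called in either direction, with a median log2 change of 0.32. In −dox cells 6 rose and 1 fell, where 22.4% of all genes were called, with a median of 0.30. In +dox DMSO cells 6 were lower and none higher than in −dox DMSO cells, where 6.15% of all genes were called (median -0.27). Under trametinib none was called between the cell states, where 3.37% of all genes were called in either direction. None was called for the difference between responses, where 0.33% of all genes were. With such small shares over all genes, the lack of calls does not show that the cell states were alike. Usp18, an interferon-induced brake on the type I receptor, rose by 4.89 in +dox cells (adjusted p = 8.4e-05 from limma) and by 1.75 in −dox cells (adjusted p = 0.035), and was lower in +dox DMSO than in −dox DMSO cells (log2 change -2.35, adjusted p = 0.026). Nlrc5, the transactivator of MHC class I genes, rose by 1.52 in −dox cells and by at least 3.37 in +dox cells, with its +dox DMSO mean under the background level. Irf7, a transcription factor of the interferon response, rose by 3.39 and 1.31 in +dox and −dox cells. Stat2, which with Irf9 binds the ISRE, rose by 2.54 and 0.93. Cxcl10, an interferon-induced chemokine, rose by 4.03 in +dox cells (adjusted p = 0.0023), and its −dox arrays overlapped (1.27, adjusted p = 0.28). The interferon genes Ifng and Ifnb1 averaged 2.99 and 4.12 in +dox trametinib, 2.94 and 4.01 in +dox DMSO, 2.97 and 4.23 in −dox trametinib, and 2.78 and 4.04 in −dox DMSO cells, under the background level throughout.

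**Figure D5:**
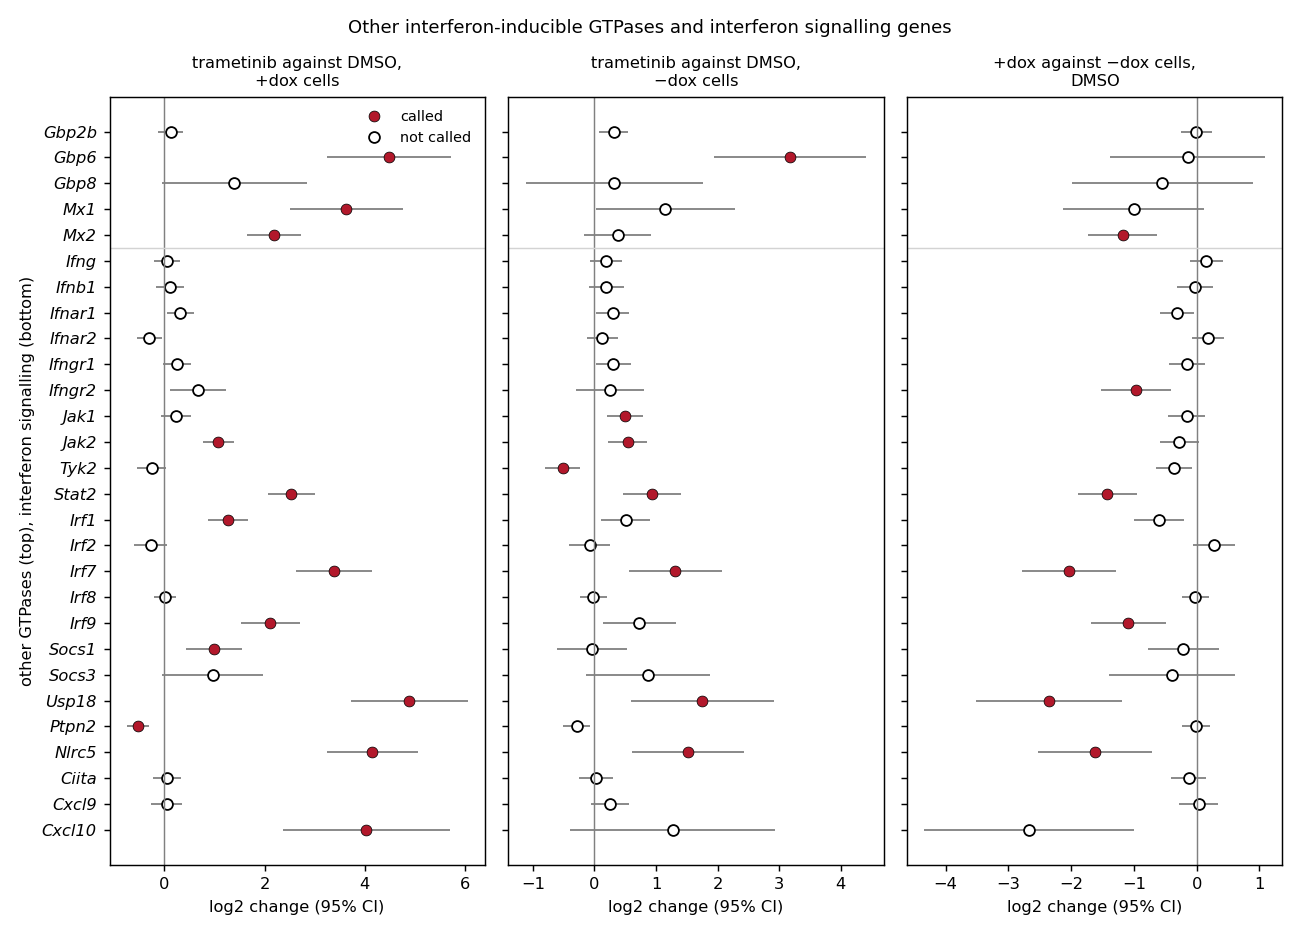
Log2 changes with 95% confidence intervals for 5 other interferon-inducible GTPases (top) and 23 interferon and signalling genes (bottom) with trametinib in +dox cells (left), with trametinib in −dox cells (middle) and for +dox against −dox cells under DMSO (right); filled points had an adjusted p under 0.05 from limma. Gbp6 is filled in both trametinib panels, Usp18, Nlrc5, Irf7 and Stat2 in all 3 panels, and Ifng and Ifnb1 in none.

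The GTPases act with the autophagy proteins that place them on membranes and with the inflammasome, and 23 such genes were measured. With trametinib 11 rose and none fell in +dox cells (median 0.40), where 13.8% of all genes were called higher, and 8 rose and none fell in −dox cells (median 0.27), where 11.6% were. Trim21, a ubiquitin ligase, rose by 1.76 in +dox cells (adjusted p = 0.00033 from limma), Casp4, the caspase that senses lipopolysaccharide, by 1.43 (adjusted p = 0.049), Map1lc3b, an autophagosome protein, by 1.07 (adjusted p = 0.0019) and Gabarap, its relative, by 0.94 (adjusted p = 0.00025). In −dox cells Gabarapl2, a further protein of that family, rose by 0.94 (adjusted p = 0.00059). Between the cell states under DMSO, 1 of the 23 was higher and 1 lower in +dox cells, and 21 were not called. Over all genes, 6.15% were called in either direction, so these calls do not set the partners apart. The higher gene was Becn1 (0.56, adjusted p = 0.044 from limma) and the lower one the cytokine gene Il18 (-1.18, adjusted p = 0.03). Of 10 measured large GTPases that are not known as interferon-inducible, such as the dynamin Dnm1 and the mitofusins Mfn1 and Mfn2, 2 rose and 3 fell with trametinib in +dox cells, where 26.2% of all genes were called in either direction, and 4 rose and 2 fell in −dox cells, where 22.4% were. None was called between +dox DMSO and −dox DMSO cells, where 6.15% of all genes were called. Mfn2 rose by 0.60 in +dox and 1.00 in −dox cells and Dnm1 fell by 0.99 in +dox and fell by 1.03 in −dox cells.

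Markers of other cells were read beside these changes, since in a bulk sample fewer cells of a type and less RNA per cell cannot be told apart. Of 10 measured leukocyte markers, 4, 4, 3 and 3 were over the background level in +dox trametinib, +dox DMSO, −dox trametinib and −dox DMSO cells. The defining marker Ptprc averaged 2.90 in +dox trametinib, 2.81 in +dox DMSO, 2.84 in −dox trametinib and 2.95 in −dox DMSO cells, under the background level throughout, whereas Cd3e, Cd68 and Csf1r were over it in every group. The summed levels of all 10 markers, as log2, ranged over 9.40 to 9.90 in +dox trametinib, 8.23 to 9.51 in +dox DMSO, 8.09 to 8.62 in −dox trametinib and 7.76 to 8.40 in −dox DMSO cells. In +dox trametinib cells Cd3g read highest of the 10. Cd3g, a T cell receptor chain, averaged 9.01 in +dox trametinib cells, against 4.83 in +dox DMSO, 3.48 in −dox trametinib and 3.35 in −dox DMSO cells, and rose with trametinib in +dox cells by at least 4.15 (adjusted p = 6.7e-07 from limma). Itgam, an integrin of myeloid cells, was higher in +dox DMSO than in −dox DMSO cells by at least 0.74 (adjusted p = 0.014) and fell with trametinib in +dox cells by at least 0.74 (adjusted p = 0.013). The 6 fibroblast markers, of which 4 were over the background level in each group, had summed levels of 10.4 to 10.6 in +dox trametinib, 8.51 to 9.32 in +dox DMSO, 11.4 to 11.7 in −dox trametinib and 10.8 to 11.3 in −dox DMSO cells. The markers did not share 1 order. Dcn averaged 9.63 in +dox trametinib, 6.30 in +dox DMSO, 9.98 in −dox trametinib and 8.53 in −dox DMSO cells. Pdgfra averaged 6.55 in +dox trametinib, 6.64 in +dox DMSO, 7.75 in −dox trametinib and 8.71 in −dox DMSO cells. The part of these other markers in the changes of the GTPases was not tested.

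Genes outside the family with the most similar pattern were ranked by their Pearson correlation, over the 12 arrays, with the mean of the 9 genes, each centred and scaled. The 8 highest were Trim30a (0.990), Pfkfb2 (0.989), Nlrc5 (0.984), Trim30d (0.984), Parp9 (0.983), Il15 (0.982), Ctns (0.981) and Tmem140 (0.981). All of them averaged highest in +dox trametinib and lowest in +dox DMSO cells, which the ranking by likeness to the family itself makes likely. Trim30a, an interferon-induced tripartite motif protein, averaged 10.83 in +dox trametinib, 7.97 in +dox DMSO, 10.24 in −dox trametinib and 9.12 in −dox DMSO cells. Il15, a cytokine that sustains natural killer cells, averaged 8.93 in +dox trametinib, 6.16 in +dox DMSO, 8.09 in −dox trametinib and 6.75 in −dox DMSO cells. Pfkfb2, a regulator of glycolysis, averaged 7.70 in +dox trametinib, 5.81 in +dox DMSO, 7.47 in −dox trametinib and 6.36 in −dox DMSO cells.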

How the data were processed

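RNA of 12 C790 samples was hybridised to Affymetrix mouse genome arrays. The authors ran RMA in the Chipster software on the scanner files. The deposited log2 values per probe set were not changed further, since RMA already corrects background and sets all arrays to a shared distribution. The deposited table holds no detection calls, and the number of arrays limits the precision. Of 45101 probe sets, 64 control probe sets, 9160 with no gene and 932 with several genes were left out. The remaining 34945 gave 18193 genes, each represented by its highest-reading probe set, averaged over the 12 arrays. Low values were not filtered out. Where 1 of the means compared was under the background level and the other over it, the change is bounded by how far the upper mean stood above that level.

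One mean per group was fitted to all genes in R 4.3.3 with the default lmFit and eBayes of limma 3.58.1. Benjamini-Hochberg adjustment covered the 18193 genes in each comparison. The methods name a fold change and a p-value but no model. The 9 genes, the gene lists, the comparisons and the alternatives were chosen with earlier results of these data known. All 9 genes and all measured other interferon-inducible GTPases are named, of each further list up to 4 called genes with the largest change plus those a sentence needed, and the 8 genes most like the family. Array numbers were taken to pair the arrays for trametinib in +dox cells, dox under DMSO and dox under trametinib, where same-numbered arrays deviated together in every pair (correlations 0.16 to 0.45, 0.17 to 0.34 and 0.21 to 0.29). For trametinib in −dox cells the correlations were 0.02 to 0.46, so not every pair deviated together. No label says that same-numbered arrays are pairs, so pairing entered only as an alternative fit. Alternative fits used the replicate number as a block, only the arrays compared, the average of all probe sets per gene, a filter on the background level, quantile normalisation, median centring, a robust eBayes with a trend, array weights, other thresholds, leaving out each array, and, added after the data were seen, probe sets one by one and all arrays numbered 1 left out. Python 3.11.15 with matplotlib 3.10.9 drew the figures. The sources used here do not give the trametinib concentration of the array samples.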

Additional observations from a re-analysis of the deposited data

Results flagged for a closer look

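Iigp1, Gbp2 and Gbp3 were singled out because their trametinib response differed between +dox and −dox cells by the test of the difference itself. The response of +dox cells minus that of −dox cells was 4.60 for Iigp1 (SE 0.71, adjusted p = 0.03 from limma), 3.44 for Gbp2 (SE 0.49, adjusted p = 0.022) and 3.36 for Gbp3 (SE 0.55, adjusted p = 0.034), each on the log2 scale. The value of Iigp1 rests on +dox DMSO arrays under the background level (mean 3.66), and its second probe set gave 4.18 (adjusted p = 0.056). The number of genes called in this comparison ranged over 0 to 6 of the 9 when 1 array was left out, with adjusted p for Iigp1 between 0.0072 and 0.086.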

How the results depend on the processing

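The direction of every change given for the 9 genes was kept under all alternatives run. With trametinib, 9 genes were called in +dox cells whichever array was left out, and 8 to 9 in −dox cells, where Gbp7 was the gene lost. Without the 4 arrays numbered 1, an alternative chosen after seeing the data, 9 were called in +dox and 8 in −dox cells, again all but Gbp7 (0.54, adjusted p = 0.11). For +dox against −dox cells under DMSO the count of 4 became 8 with array weights, 9 without the 4 arrays numbered 1 and 3 to 6 when 1 array was left out. Under trametinib the count of 0 became 3 with array weights, 4 without the 4 arrays numbered 1 and 0 to 5 when 1 array was left out. For the difference between responses the count of 3 became 9 with array weights, 9 without the 4 arrays numbered 1, 0 at an adjusted p under 0.01 and 0 to 6 when 1 array was left out. The shares of all genes called are given here for the main fit only. Counts under the alternative fits, also those that left out arrays, therefore describe the 9 genes and are not set against all genes. The cause of the changed counts was not tested. The replicate block gave 9 and 9 genes for trametinib in +dox and −dox cells, 4 and 0 for +dox against −dox cells under DMSO and trametinib, and 3 for the difference, and changed no call. Centring arrays on their medians moved the median of all genes to 0.11 for dox under DMSO, -0.11 for dox under trametinib, 0.19 for trametinib in −dox cells and -0.21 for the difference, with 4, 0, 9 and 3 of the 9 genes called. The background level was 4.59 at the 90th and 5.42 at the 99th percentile, and Iigp1 and Gm4951 in +dox DMSO cells were under it at each.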
